A study of Mus musculus with 18 samples.

Results

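In hybrid males of a C57BL/6J (B6) by CAST cross, DMC1 ChIP-seq of testis gave 18740 autosomal hotspots of meiotic DNA breakage, and 8022 of them are described here. These 8022 were chosen by 2 measured values. Their B6 share, the fraction of DMC1 reads assigned to the B6 chromosome, lay from 0.1 to 0.9, which is called symmetric below. No hotspot centre lay within 1000 bp of them in the B6/B6, PWD/PWD or infertile F1 map. The males of the DMC1 maps were about 10 weeks old, except that no age is given here for the B6/B6 map, which re-analysed an earlier library, or for the H3K4me3 libraries. How many animals went into a library is not stated. The B6 by CAST males, titled (B6xCAST)F1, carried the B6 and CAST alleles of Prdm9. The PWD/PWD males were of strain PWD/PhJ, and the infertile F1 males, titled (PWDxB6)F1, carried the PWD and B6 alleles. Of 5 maps that the choice did not use, the reciprocal F1 map came from (B6xPWD)F1 males with the B6 and PWD alleles. The B6/Hum and Hum/Hum maps came from C57BL/6J males with 1 or both Prdm9 alleles humanized. The rescue F1 and Hum/PWD F1 maps came from (PWDxB6)F1 and (B6xPWD)F1 males with 1 PWD and 1 humanized allele. Every DMC1 map came from 1 library, so no genotypes could be tested, and intervals below cover only the counting of hotspots.

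PRDM9 is a zinc-finger protein of meiotic cells that binds DNA by its finger array and places H3K4me3 on the nucleosomes around the bound site. SPO11 then breaks the DNA there, and DMC1 coats the single-stranded ends that search for the partner chromosome. In a hybrid, a site that PRDM9 binds on only 1 of the parental chromosomes is broken on that chromosome, while a symmetric site is broken on both. Different Prdm9 alleles have different fingers and place breaks at different sites. No map of CAST males was used here, so which allele of PRDM9 set a hotspot of this class was not tested.

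The sequence at the centres is shown first, because 2 kinds of enriched word were found in it. The letters come from the GRCm38 (mm10) reference, which is the B6 sequence, so CAST bases were not read. Each leading exact word of the search stood in a minority of the members. Only exact words were ranked, so whether the members share a longer, variable sequence was not tested. The 8-letter words that were most enriched in the 300 bp around the centres on the odd-numbered autosomes, against equal windows 1500 to 1800 bp to each side, were CTTTGACC (on the other strand GGTCAAAG) and ATGTGACC (GGTCACAT). On the even-numbered autosomes, which were not used to find them, CTTTGACC stood in 3.33% of 3937 members (2.81 to 3.93%, 95% Wilson interval) and in 1.13% of the flanking windows. ATGTGACC stood in 5.31% (4.65 to 6.05%) and in 0.940% of the flanking windows. The letters shared by both words make a 7-letter core, GGTCANA, which is used below. The core was chosen after its values had been seen on all autosomes. CTTTGACC, on which its open letter N rests, was not among the 2 leading words of the other 8-letter searches. Those were led by ATGTGACC or GATGTGAC.

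The 6 sites below show the core in capitals with its flanks, in the orientation of the core. The first 3 lie in members that are among the 12 hottest, and the last 4 are the hottest members that hold, core and flanks together, 13 or more of the 15 fixed letters of a longer pattern described below. Each run is 50 bases of mm10.
Atp2b1 intron, chr10:98960278-98960327, plus strand, heat 588.1: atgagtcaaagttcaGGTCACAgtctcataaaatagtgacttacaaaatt
4932441J04Rik intron, chr5:57630687-57630736, minus strand, heat 505.7: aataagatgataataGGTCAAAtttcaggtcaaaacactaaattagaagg
Cadps2 intron, chr6:23597292-23597341, minus strand, heat 455.7: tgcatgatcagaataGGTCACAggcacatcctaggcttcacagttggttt
Intergenic, nearest gene Dthd1, chr5:63004911-63004960, plus strand, heat 415.3: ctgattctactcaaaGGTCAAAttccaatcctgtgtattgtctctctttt
Ctnnd2 intron, chr15:30527775-30527824, plus strand, heat 413: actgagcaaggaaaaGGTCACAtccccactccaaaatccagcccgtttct
Intergenic, nearest gene Sel1l, chr12:93461048-93461097, minus strand, heat 400.3: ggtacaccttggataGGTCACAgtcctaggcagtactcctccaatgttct

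A second kind of site was rich in A and T. With 10-letter words, the most enriched word on the odd-numbered autosomes was ATATAATATA (TATATTATAT on the other strand). Shown here are 3 hot members that hold it, with the word in capitals, in 100 bases of mm10 each. They lie toward the upper end of this set, which reached a heat of 130.2 at a member not shown. The median heat of the set was far lower, as given below.
Intergenic, nearest gene Ebf1, chr11:45332598-45332697, plus strand, heat 113.3, B6 share 0.837: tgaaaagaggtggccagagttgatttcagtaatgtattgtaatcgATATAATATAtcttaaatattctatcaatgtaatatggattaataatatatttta
Intergenic, nearest gene 4930474N05Rik, chr14:36359050-36359149, plus strand, heat 111.8, B6 share 0.829: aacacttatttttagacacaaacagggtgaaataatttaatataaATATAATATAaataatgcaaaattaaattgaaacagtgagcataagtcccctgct
Pld1 intron, chr3:28023443-28023542, minus strand, heat 103.4, B6 share 0.233: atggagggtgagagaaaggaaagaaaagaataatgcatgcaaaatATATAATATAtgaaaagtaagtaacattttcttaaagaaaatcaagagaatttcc

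The members were many but mostly weak. They made up 42.8% of the autosomal hotspots of the map (42.1 to 43.5%, 95% Wilson interval) and carried 30.1% of its autosomal heat, where heat is the authors' deposited DMC1 signal of a hotspot on a relative scale. Their median heat was 28.6 (27.8 to 29.6, exact binomial interval of the rank), with quartiles of 16.1 and 67.6 and a range from 6.1 to 590.3. All other autosomal hotspots of the map had a median of 58.0 (55.8 to 60.0). The files give no read numbers for the map, so the precision of a single heat is unknown.

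The heat of the class lay in its upper end. When the members were ranked by heat in 10 equal groups (deciles), the hottest decile held 39.1% of the members' heat and the members up to the median heat 14.98%. The hottest decile of the other hotspots held 34.0% of theirs. Of the members 1300, or 16.2%, had a heat above 100, and 105 had a heat above 300. Among the hottest 1000 hotspots of the map 164 were members, or 16.4% (14.2 to 18.8%), and among the coldest 5000 there were 2799, or 56.0% (54.6 to 57.4%).

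Against the hotspots of the same cross that also matched none of the 3 maps but were broken mostly on 1 chromosome, the members had a lower median heat over the whole map. The 1513 hotspots with a B6 share above 0.9 had a median heat of 120.7 (114.0 to 127.8), and the 730 with a B6 share below 0.1 had 77.4 (72.7 to 82.4). The median of the members was 0.237 of the first and 0.370 of the second. Among the hotspots at or above the median heat of the map alone these ratios were 0.618 (0.565 to 0.675) and 0.917 (0.833 to 1.013), from the intervals of the medians. The second interval includes 1, so there the members could not be told from the hotspots on the CAST chromosome. The intervals of the 3 medians did not overlap over the whole map. A further 1340 unmatched hotspots had no B6 share in the file, and their median heat was 12.8 (12.4 to 13.4).

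Symmetric hotspots that did match another map had a similar or higher median heat. The 1901 that matched the B6/B6 map only had a median heat of 30.2 (29.1 to 31.7), close to that of the members, with a narrower upper range (upper quartile 53.8 against 67.6). The 1533 that matched the PWD/PWD map only had a median of 60.0 (55.2 to 65.9), which was 2.10 times that of the members. The 563 that matched only the infertile F1 map had a median of 30.4 (27.8 to 32.7). Of the unmatched hotspots with a B6 share, 78.1% were symmetric (77.3 to 78.9%), against 62.1% of those matching the B6/B6 map only and 75.5% of those matching the PWD/PWD map only. The symmetric share was 64.3% for those matching both of these maps and 37.4% for those matching only the infertile F1 map (35.0 to 39.8%). The choice itself used the B6 share and the match, so these shares are a description.

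**Figure D1:**
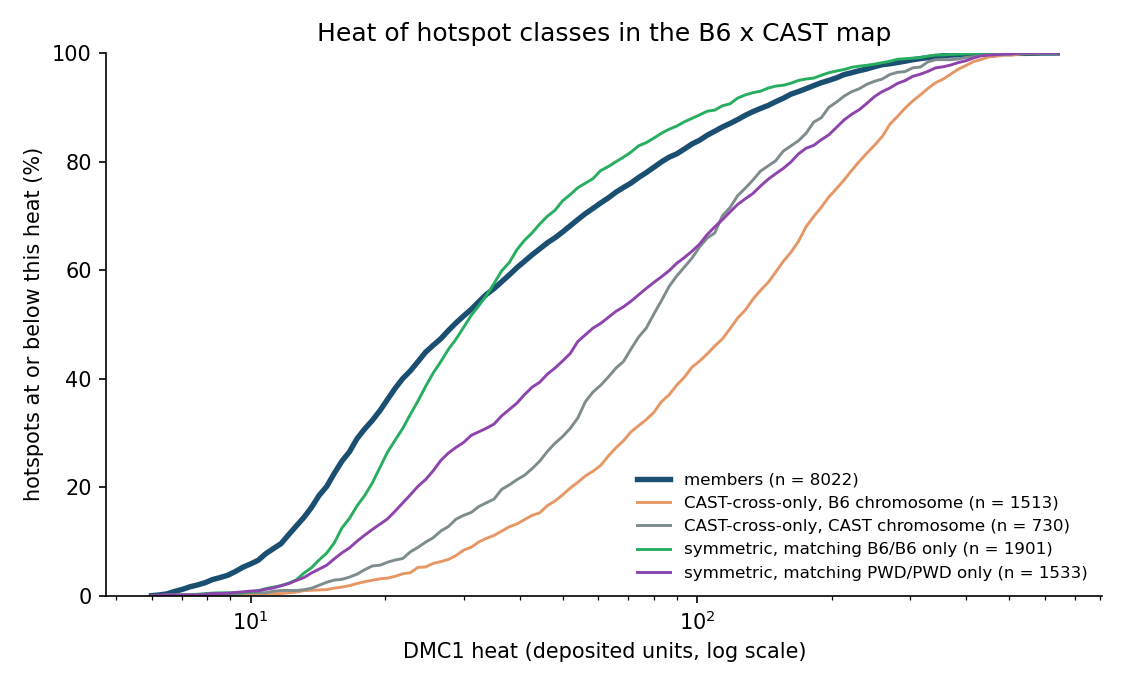
Share of hotspots (y axis, %) at or below each DMC1 heat (x axis, deposited units, log scale) in the B6 by CAST map, 1 line per class. The line of the 8022 members lies to the left of those of the CAST-cross-only hotspots on the B6 chromosome and on the CAST chromosome, with medians of 28.6, 120.7 and 77.4.

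The B6 share of the members centred on balance, with tails reaching both limits. Its median was 0.513 (0.507 to 0.517), its quartiles 0.405 and 0.625 and its SD over hotspots 0.180. A share from 0.3 to 0.7 was found in 5845 members, or 72.9% (71.9 to 73.8%), and these held 74.2% of the members' heat. The B6 chromosome had the larger share in 4146 members and the CAST chromosome in 3583, while 293 stood at exactly 0.5. The number of reads that could be assigned is not in the files, so the share of a cold hotspot may rest on few reads and no interval was made for a single one.

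The spread of the share changed with heat, but not in 1 direction. In the coldest decile of members, of heat 6.1 to 11.8, the SD was 0.141, in the fifth decile it was 0.205 and in the hottest decile, from 140.6 to 590.3, it was 0.163. The fraction with a share from 0.3 to 0.7 followed, with 81.8%, 64.6% and 75.7%. The coldest decile held 78 of the 293 members at exactly 0.5 and the hottest 6. In the hottest decile the B6 chromosome was ahead in 58.3% of members and the CAST chromosome in 41.0%. There 165 members had a share above 0.7 and 30 had a share below 0.3. In the coldest decile 99 lay above 0.7 and 47 below 0.3, and in the fourth 121 and 155. Over all members 1241 lay above 0.7 and 936 below 0.3. By quartile group of heat, from coldest to hottest, the counts above 0.7 were 264, 329, 299 and 349. Those below 0.3 were 180, 356, 282 and 118. The lean to the B6 chromosome thus stood mainly in the coldest and hottest groups.

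Symmetric hotspots of other matches differed among themselves in where they centred. Those matching the B6/B6 map only had a median B6 share of 0.417 (0.405 to 0.429), with 663 below 0.3 and 196 above 0.7. Those matching only the infertile F1 map had a median of 0.273 (0.242 to 0.316). Those matching the PWD/PWD map only had 0.516 (0.508 to 0.525) and an SD of 0.176, close to the members.

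**Figure D2:**
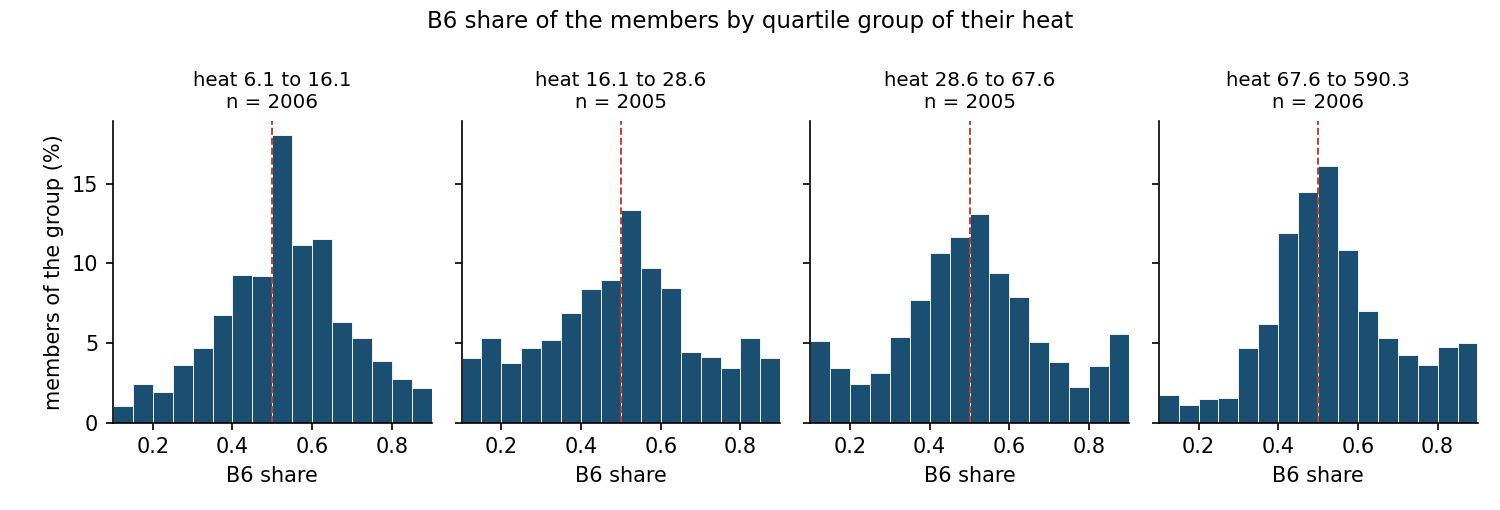
Distribution of the B6 share (x axis, bins of 0.05) among the members in each quartile group of their heat (y axis, % of the group), with the dashed line at 0.5. The peak stands near 0.5 in every group, and in the hottest quartile group 349 members lay above 0.7 and 118 below 0.3.

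Values on both sides of each limit of the choice are given as a description. At a B6 share of exactly 0.1 there were 10 members of median heat 42.6, the hottest in an intron of Gm31166 (chr19:5523108, heat 217.8), and 7 unmatched hotspots at 0.099, of median heat 45.7, fell outside. At exactly 0.9 there were 20 members of median heat 32.0, the hottest 50290 bp from Zfhx3, a transcription factor gene (chr8:109011920, heat 148.6). Outside it were 2 at 0.901, of median heat 52.6. By distance, a member in an intron of Dnajc25, a co-chaperone gene (chr4:59016322, heat 27.5, B6 share 0.377), lay 1002 bp from the nearest centre of the 3 maps. A hotspot on chromosome 2 of heat 9.4 and B6 share 0.586 fell outside at 999 bp. From 1000 to 2000 bp of a B6/B6 centre there were 123 members, and in the next 3 steps of 1000 bp 143, 133 and 130. For the PWD/PWD map the counts were 193, 159, 172 and 147.

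The 12 hottest members lay on 9 autosomes, and 10 of them stood in introns. Genes are given by position only. The hottest was intergenic, 23914 bp from Tpd52, a gene of vesicle traffic (chr3:9028637, heat 590.3, B6 share 0.513). It lay 1206 bp from a centre of the infertile F1 map, just past the limit of the choice. The next stood in an intron of Atp2b1, which encodes a calcium pump of the plasma membrane (chr10:98960418, heat 588.1, B6 share 0.458). The third lay 6615 bp from the splicing factor gene Plrg1 (chr3:83078970, heat 586.7, B6 share 0.659). The fourth, in an intron of the ubiquitin ligase gene Mycbp2 (chr14:103252759, heat 561.6, B6 share 0.816), was 1104 bp from a PWD/PWD centre.

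A further 7 of the 12 were of heat 419.1 to 505.7. They lay in introns of 4932441J04Rik, Irak1bp1, Cfap36, the endocytic receptor gene Ly75, Cadps2 (a gene of vesicle release), Vps13b (lipid transport) and the glutamate receptor gene Grm8. Their B6 shares ran from 0.407 at Vps13b to 0.883 at Irak1bp1. The site in Irak1bp1 (chr9:82831770, heat 497.3) was 1964 bp from a protein-coding transcription start, the closest of the 12. Balanced and uneven sites thus stood side by side at the top of the class.

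Uneven members reached their highest heat on the B6 side. With a share from 0.8 to 0.9 the hottest were the sites in Mycbp2 and Irak1bp1 and an intron of Fam155a, which encodes a subunit linked to the sodium leak channel (chr8:9311803, heat 405.8, B6 share 0.849). With a share from 0.1 to 0.2 they stood in introns of Bri3 (chr5:144428786, heat 340.2, B6 share 0.163), the sorting nexin gene Snx25 (chr8:46146339, heat 285.7, B6 share 0.122) and Fndc3b (chr3:27584839, heat 257.4, B6 share 0.116).

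Genes of break formation and repair held members at about the density of the autosomes. Of 45 such genes on the autosomes, 6 held a member, with 8 members and 18 hotspots of the map in all. That is 3.49 members per Mb of these genes (1.505 to 6.87, exact Poisson interval), beside 3.35 over the autosomes. Hsf2bp, whose product binds BRCA2 in meiosis, held 3, the hottest of heat 161.9 (chr17:32027019, B6 share 0.552). Meiob, which encodes a single-stranded DNA binding protein of meiotic repair, held 1 of heat 63.4 (chr17:24819771, B6 share 0.580). The other 4, of heat 6.7 to 20.9, stood in Rad21l (a meiotic cohesin subunit), Msh4 (which stabilizes crossover intermediates), Hormad2 (a protein of the chromosome axis) and Gm960, the name in GENCODE M21 for Top6bl, the partner of SPO11.

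The members were spread over all autosomes at similar density. Over the 2396 Mb of autosome outside assembly gaps there were 3.35 members per Mb (3.28 to 3.42, exact Poisson interval) and 4.47 other hotspots. Chromosome 11 had the highest density, with 441 members or 3.71 per Mb (3.38 to 4.08), and chromosome 7 the lowest, with 402 or 2.83 (2.56 to 3.12). Chromosome 16, at 3.69, was close to the highest. The order at the top changed with the choice of hotspots: chromosome 10 was densest with B6 shares from 0.2 to 0.8, and chromosome 16 with shares from 0.3 to 0.7 or without hotspots near protein-coding starts. Among hotspots at or above the median heat of the map chromosome 3 was the sparsest. The ratio of chromosome 11 to chromosome 7 was 1.31, against 1.28 for the highest over the lowest density of the other hotspots. The interval held the autosomal value in 16 of the 19 autosomes, while 2 lay below it and 1 above. Members made up 37.3% of the hotspots of chromosome 15 and 46.3% of those of chromosome 14, the extremes. Their part of the heat ran from 24.2% on chromosome 3 to 35.6% on chromosome 17. The hottest member of chromosome 11 stood in an intron of Cfap36 (chr11:29224417, heat 478.7), and that of chromosome 7 in an intron of Sox6, a transcription factor gene (chr7:115745970, heat 366.3).

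**Figure D3:**
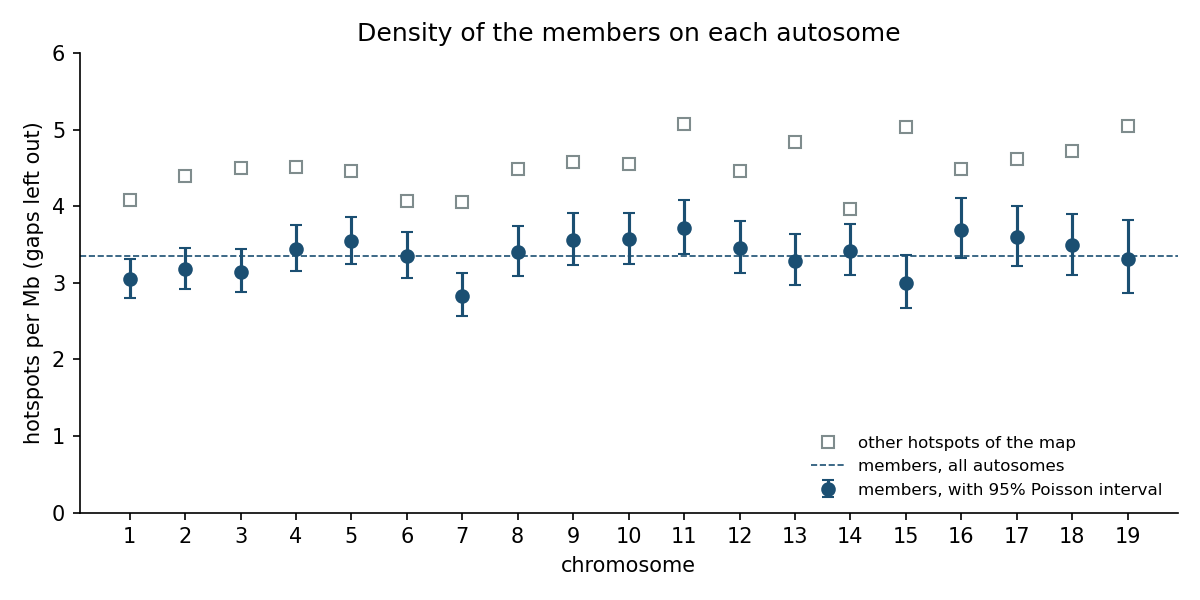
Members per Mb of each autosome outside gaps (filled points with 95% Poisson intervals) beside the other hotspots of the map (open squares), with the dashed line at the autosomal density of 3.35. Chromosome 7 at 2.83 has the lowest value and chromosome 11 at 3.71 the highest.

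Along the chromosomes the members were fewest at the start, where the mouse assembly opens with an unsequenced centromeric stretch. When each chromosome was divided into 10 equal lengths, the first held 565 members, or 7.04% of all, and the others 767 to 892. Of the other hotspots 8.01% lay in the first length. Among the hotspots of a length, members made up from 39.7% in the first (37.2 to 42.2%) to 46.0% in the seventh (43.8 to 48.2%). Another hotspot of the map lay within 5 kb of 6.88% of the members and of 7.63% of the others. The median B6 share of the members was above 0.5 on 13 autosomes, at 0.5 on 5 and below it on 1.

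The members were also set beside the 5 maps that the choice did not use. The Hum/Hum map, which carries neither the B6 nor the PWD allele, held a centre within 1000 bp of 134 members, or 1.67% (1.41 to 1.97%). The background over all autosomal hotspots of the B6 by CAST map was 2.18%, and the share over all unmatched hotspots was 1.66%. The rate in this map was thus not particular to the members. The other 4 maps carry an allele that also stood in the maps used for the choice, so their low values are partly set by it. There the counts were 105 in the B6/Hum map (1.31%, background 12.4%), 110 in the rescue F1 map (1.37%, background 7.41%), 125 in the Hum/PWD F1 map (1.56%, background 9.39%) and 14 in the reciprocal F1 map (0.175%, background 29.7%). Some members were found in several: 213 were in at least 1 of the 5 maps and 57 in all 4 maps with a humanized allele. These 57 had a median heat of 34.8. The remaining 7809 members, 97.3%, were in none of the 8 other maps, of which the choice itself had excluded 3. These counts over several maps were not made for all autosomal hotspots of the map, so no background stands beside them.

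H3K4me3 was deposited in bins at the hotspots of other maps and not analysed here for the CAST cross, so only members found in those maps can be read. At 134 bins of the Hum/Hum table near members the deposited enrichment over local background had a median of 1.01 (0.675 to 1.25), against 0.867 over all 15515 autosomal bins. The median counts there were 46 and 48.5 fragments in the pseudoreplicates and 43 in the input. At 110 bins of the rescue F1 table it was 0.705 (0.584 to 1.00), against 0.955 over all bins, and 16 of the 110 were at 0, or 14.5%, against 2.24% of all. The reciprocal F1 table held 14 such bins, with a median of 0.192 (0 to 1.03) against 0.416. Each of these intervals includes the median of all bins of its own table.

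Cold and hot members differed in gene context. Of all members 54.1% stood in a gene (53.0 to 55.2%), with 48.7% in introns, 1.70% in coding exons, 1.78% in UTRs and 45.9% between genes, by GENCODE M21. In the coldest decile 40.3% stood in a gene (37.0 to 43.8%) and in the hottest 66.1% (62.8 to 69.3%). Of all autosomal hotspots of the map 56.5% stood in a gene (55.8 to 57.2%), with 50.0% in introns and 43.5% between genes. The share in a gene was 55.8% for unmatched hotspots on the CAST chromosome (52.1 to 59.3%) and 58.8% for those on the B6 chromosome (56.3 to 61.2%). Of the symmetric hotspots matching the B6/B6 map only, 62.2% stood in a gene (60.0 to 64.4%). Within 1000 bp of a protein-coding transcription start there were 160 members, or 1.99% (1.71 to 2.32%), beside 2.14% of all hotspots of the map.

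The cold members were also richer in A and T. In the 300 bp around the centre the median A and T content was 66.2% in the coldest quartile group of members and 57% in the hottest. On average 30.7% of the bases of the coldest quartile group were marked as repeats in the reference, against 15.9% in the hottest. Unmatched hotspots broken mostly on the B6 chromosome had 55.7% A and T and 16.6% repeats, and all autosomal hotspots of the map 57.7% and 21.9%. The unmatched hotspots without a B6 share, also cold, had 64.3% and 38.8%, so such sites were not particular to the members. How far repeats move the mapping of reads, and so the heat, was not tested.

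The core pattern GGTCANA, searched on both strands, stood in the 300 bp of 23.3% of the members on even-numbered autosomes (22.0 to 24.7%) and in 13.6% of their flanking windows. All autosomal hotspots of the map held it in 20.6%. Of the symmetric hotspots matching the B6/B6 map only, 14.6% held it (13.1 to 16.2%), with 14.3% in their flanks, close to the same level at centre and flank. Those matching the PWD/PWD map only held it in 18.3% (16.4 to 20.3%). Around the members of all autosomes, which include those used to find the words, matches peaked in the 50 bp after the centre at 1.97 times the outer level.

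The share with the core was higher among hotter members. On the even-numbered autosomes it was 13.3% in the coldest decile (10.3 to 16.98%), 24.9% in the fifth and 31.5% in the hottest (27.2 to 36.2%). The coldest decile was thus near the level of the flanks. In the heat range of the hottest decile, 32.9% of the unmatched hotspots on the B6 chromosome held the core (27.8 to 38.4%) and 16.4% of the symmetric ones matching the PWD/PWD map only (11.7 to 22.5%). In that range it stood in 23.9% of 67 symmetric ones matching the B6/B6 map only (15.3 to 35.3%) and in 21.3% of 75 unmatched ones on the CAST chromosome (13.6 to 31.9%), and both intervals overlapped that of the members. Members with and without the core had a similar spread of B6 share, with medians of 0.512 and 0.513 and SDs of 0.179 and 0.181.

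Around the core, some letters were also frequent. Aligning 367 matches in the hottest quartile group of members on odd-numbered autosomes, and keeping bases found in 40% or more, gave the pattern AAAGGTCACAGNCCNANNC, with 15 fixed letters over 19 positions. Its last C stood in 57.4% of 352 matches in the hottest quartile group on even-numbered autosomes (52.2 to 62.4%), in 32.1% of 162 in the coldest quartile group (25.4 to 39.6%) and in 23.2% of 155 at symmetric hotspots matching the B6/B6 map only. That letter had the widest gap between hot and cold. Of the other 8 letters outside the fixed core, the C in its open position (51.7% against 33.3%) and the C just before the second N (46.9% against 31.5%) also had intervals that did not overlap. The intervals of the remaining 6 overlapped, and the A just before the core was at 50.9% and 50%. On the even-numbered autosomes the median heat was 25.5 for the 3018 members without the core (24.2 to 26.8). It was 29.6 with 6 to 8 of the 15 letters, 35.4 with 9 or 10, 48.4 with 11 or 12 (43 to 57) and 52.4 with 13 or more (38.7 to 73.8, n = 103). More letters went with more heat, but the sites without the core still held 71.7% of the heat. Over all autosomes 11 or more letters stood in 11.4% of the members (10.7 to 12.1%). The share was 17.1% for unmatched hotspots on the B6 chromosome (15.3 to 19.1%) and 3.56% for those on the CAST chromosome (2.44 to 5.17%).

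**Figure D4:**
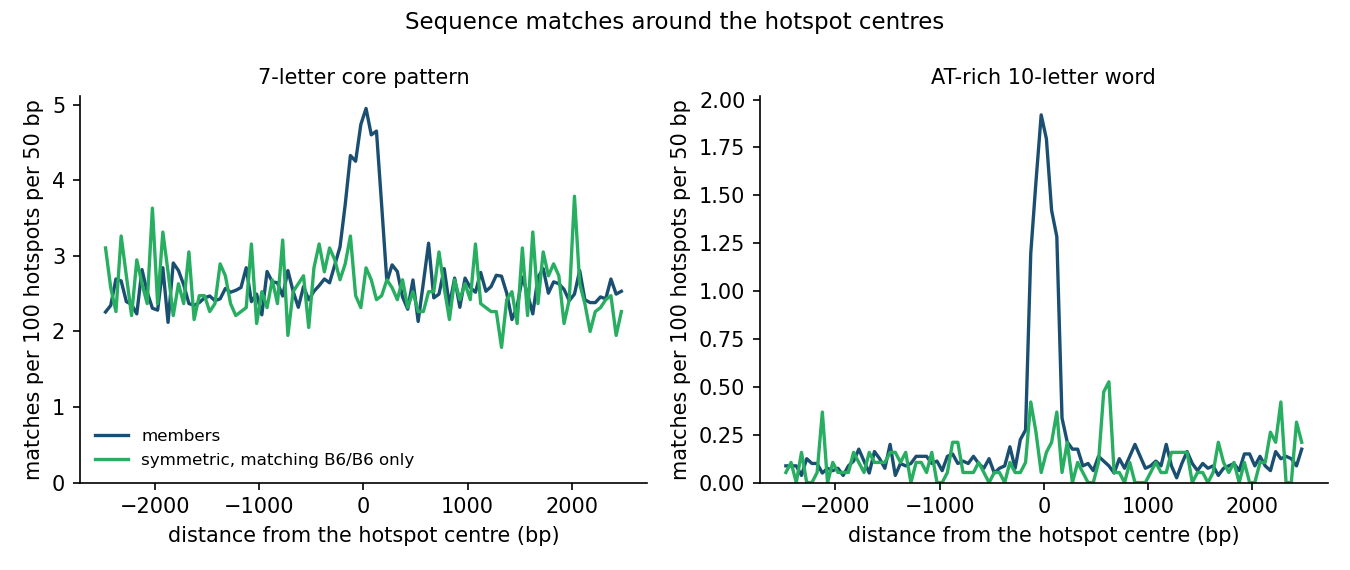
Matches per 100 hotspots in each 50 bp (y axis) by distance from the hotspot centre (x axis, bp), for the core pattern (left) and the AT-rich word (right), at members and at symmetric hotspots matching the B6/B6 map only. Both peak at the centre of the members, at 1.97 and 19.6 times the outer level. The members of all autosomes were used, including those on which the words were found.

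The AT-rich word ATATAATATA marked a set of cold members. It stood in 4.27% of the members on even-numbered autosomes (3.68 to 4.94%) and in 0.457% of their flanking windows. Over the members of all autosomes, which include those used to find the word, matches peaked in the 50 bp before the centre. The peak was 19.6 times the outer level. All autosomal hotspots of the map held it in 2.72%, and symmetric hotspots matching the B6/B6 map only in 0.789% (0.479 to 1.30%). The 333 members with the word had a median heat of 17.3 and a range from 7.3 to 130.2.

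These members were found in a narrow band of heat. On the even-numbered autosomes the word stood in 2.30% of the coldest decile, 12.03% of the fourth (9.19 to 15.6%), 0.783% of the sixth and none of 409 members of the hottest decile, where 0 allows a share of up to 0.930%. In the heat range of deciles 2 to 5, 11.8 to 28.6, it stood in 9.49% of members (8.15 to 11.03%), against 1.93% of symmetric hotspots matching the B6/B6 map only (0.982 to 3.77%) and 2.29% of those matching the PWD/PWD map only (0.892 to 5.73%). Over the same range 19.5% of the unmatched hotspots without a B6 share held it (15.2 to 24.6%). Members and matched symmetric hotspots thus differed within the same range of heat, with intervals that did not overlap.

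The B6 share of these sites was tight. In deciles 2 to 5 the SD was 0.115 for the 296 members with the word and 0.194 for the 2912 without it, with 90.2% (86.3 to 93.1%) and 67.2% (65.5 to 68.9%) from 0.3 to 0.7. Their median B6 share was 0.545 (0.533 to 0.562), above balance. Their 300 bp held a median of 82.7% A and T, and on average 67.0% of it was marked as repeats. They were also uneven over the chromosomes. The extremes were 9.47% of the members of chromosome 10 (7.11 to 12.5%) and 1.64% of those of chromosome 18 (0.702 to 3.78%). Chromosome 8 had 7.96% (5.75 to 10.9%) and chromosome 4 had 1.91% (1.04 to 3.48%). These shares were not made for all hotspots of each chromosome, so no background stands beside them. Of the 110 members found in the rescue F1 map 17 held the word, against 4.15% of all members. In the Hum/Hum map it was 5 of 134, in the B6/Hum map 3 of 105 and in the Hum/PWD F1 map 6 of 125. None of the 14 in the reciprocal F1 map held it. Whether DMC1 or PRDM9 acts at these AT-rich sites, or how reads map there, was not tested. Without every hotspot that holds the word, the median heat of the members was 30.2 and their part of the heat of the map 29.9%.

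**Figure D5:**
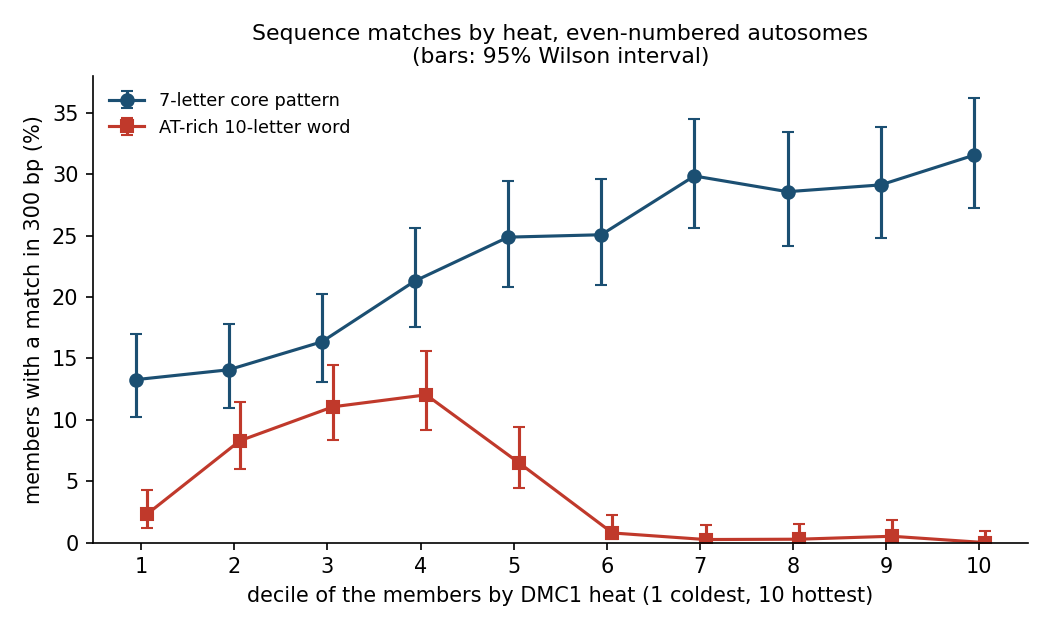
Share of members on even-numbered autosomes (y axis, %, bars are 95% Wilson intervals) with a match in the 300 bp around the centre, by decile of heat (x axis, coldest to hottest). The core pattern goes from 13.3% to 31.5%, and the AT-rich word is highest in the fourth decile at 12.03% and absent from the 409 members of the hottest.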

How the data were processed

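The work began from the deposited tables. The submitters' processing notes name BWA, SAMtools and bedtools, without versions, and the builds mm10 and mm9, of which the mm9 lists were not used here. The hotspot caller is not given in the sources used here. DMC1 heat is a relative signal deposited by the authors, and the B6 share a deposited fraction from 0 to 1 without its read numbers. Per the file headers, the H3K4me3 tables hold fragment counts in 1 kb bins, an enrichment ratio to local background and a p-value, which was not used for any call.

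Hotspots were matched by the distance of their centres. Genes came from GENCODE M21 and sequence from GRCm38. Shares carry Wilson and densities exact Poisson 95% intervals, and medians exact binomial ones. The tools were Matplotlib 3.10.9, SciPy 1.17.1, pandas 2.3.3, NumPy 2.4.6 and Python 3.11.15. The matching and the word search were tested on simulated data.

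The class, the gene list and the rule for named genes (the 12 hottest members, the 3 hottest in 3 ranges of B6 share, the hottest of the densest and sparsest autosome, those at the limits, those in list genes) were chosen with earlier results of these data known. 1 gene that meets this rule is not reported here. The core, the extended pattern and the AT-rich word were followed further after their values had been seen.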

Additional observations from a re-analysis of the deposited data

How the results depend on the processing

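No paired analysis was possible because the result comes from no test, with 1 library per genotype. No ratio of heats crossed 1 under the alternatives run, though the interval of one reached it. Of 93 values, 57 stayed within the interval of the value reported, or within 1.5 times it for the count. The part of the heat has no interval, so any change in it counted as moved. With B6 shares from 0.2 to 0.8 the members made up 36.9% of the hotspots and 25.9% of the heat, 84.6% of them had a share from 0.3 to 0.7, and their median heat was 0.310 and 0.555 of that of unmatched hotspots on the B6 and CAST chromosomes. From 0.3 to 0.7 these values were 31.2%, 22.3%, 100% by construction, 0.403 and 0.736, with a median B6 share of 0.5. Among hotspots at or above the median heat of the map there were 3055 members, 32.6% of the hotspots and 26.8% of the heat, with a median heat of 87.3. There 75.8% had a share from 0.3 to 0.7, 61.1% stood in a gene, 2.39% lay near a protein-coding start, the 2 heat ratios were 0.618 and 0.917 (the second with an interval of 0.833 to 1.013), and the ratio of highest to lowest density was 1.595. Match distances of 500 and 2000 bp gave 43.7% and 40.8% of the hotspots and 30.8% and 28.4% of the heat. Matching against 8 maps gave 41.7% and 29.2%. Without hotspots near protein-coding starts the part of the heat was 30.2%, with 0% near a start by construction. Without hotspots that hold the AT-rich word, an alternative chosen after seeing the data, it was 29.9% and the median heat 30.2. The leading sequence word changed with the search. Its share was 2.29% with 200 bp, 7.01% with 500 bp, 11.7% with 7 letters, 4.27% with 10 letters and 5.17% when found on even-numbered autosomes. The densest autosome was 10 or 16 in place of 11 in 3 alternatives, and the sparsest 3 in place of 7 in 1. Depth is unknown, so the precision of a single heat or B6 share could not be given.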
